A study of Mus musculus with 9 samples.

Results

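Immediate early genes are transcribed within minutes of a stimulus, without new protein synthesis, and their transcripts are short-lived. Signals through MAP kinases and cyclic AMP reach serum response factor and CREB on their promoters, and many of their products are transcription factors that pass the signal on. In the heart they respond to stretch, adrenergic drive and ischaemia, and they also respond to the isolation of cells from tissue. The genes described here are the AP-1 subunit genes Fos, Fosb, Jun, Junb and Jund, the transcription factor genes Egr1, Atf3 and Nr4a1, Ier2, and Dusp1, which encodes a phosphatase of MAP kinases. They were taken by symbol from the deposited count table, and 9 of the 10 were found among its 15824 genes. Fosb is not analysed here.

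RNA was measured in 9 libraries of cardiomyocytes isolated from CD1 mice, all depleted of ribosomal RNA, with 3 libraries each at postnatal day 1 (P1), day 14 (P14) and day 56 (P56). No genotype, transgene or treatment is given for any group, and the protocol text, which covers several experiments, also speaks of operated animals. Each P1 library pooled 12 hearts and each P14 or P56 library pooled 6 to 7. The protocols describe stirred enzymatic digestion of neonatal ventricles with a Percoll gradient, enzyme perfusion of adult hearts, and sorting of nuclei carrying Pcm1, and do not settle which gave each library, so age and way of isolation cannot be told apart.

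Promoter sequences of 4 of these genes are shown because the 4 took different courses over the ages, namely a rise (Dusp1), a peak at P14 (Nr4a1), a fall (Atf3) and no change past the threshold (Fos). Each is the 250 bases upstream of the RefSeq transcription start in GRCm38.p6, read 5′ to 3′ on the strand of the gene, with capitals marking TGACG (the core of the site bound by CREB and ATF proteins) on either strand. The windows are chr17:26508473-26508722 (minus strand), chr15:101266596-101266845 (plus strand), chr1:191183334-191183583 (minus strand) and chr12:85473640-85473889 (plus strand). Those of Dusp1, Nr4a1 and Atf3 lie inside the annotated loci of these genes, so annotated starts further upstream are not covered. That of Fos ends next to the annotated start.
Dusp1: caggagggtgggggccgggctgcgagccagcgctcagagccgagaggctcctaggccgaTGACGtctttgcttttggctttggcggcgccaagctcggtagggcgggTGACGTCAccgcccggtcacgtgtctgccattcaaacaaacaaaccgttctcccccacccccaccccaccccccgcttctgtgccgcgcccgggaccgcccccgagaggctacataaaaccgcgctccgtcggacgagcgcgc
Nr4a1: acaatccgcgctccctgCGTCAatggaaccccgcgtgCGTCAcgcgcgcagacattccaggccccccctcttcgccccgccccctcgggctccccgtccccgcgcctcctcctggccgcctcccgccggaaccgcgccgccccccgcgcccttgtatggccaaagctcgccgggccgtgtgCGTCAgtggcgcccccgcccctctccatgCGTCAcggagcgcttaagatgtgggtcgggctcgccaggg
Atf3: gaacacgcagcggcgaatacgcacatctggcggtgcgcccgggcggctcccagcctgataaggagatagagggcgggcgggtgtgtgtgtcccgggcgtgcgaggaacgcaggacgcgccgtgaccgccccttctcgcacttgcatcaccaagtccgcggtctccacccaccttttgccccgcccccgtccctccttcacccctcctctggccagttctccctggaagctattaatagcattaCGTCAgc
Fos: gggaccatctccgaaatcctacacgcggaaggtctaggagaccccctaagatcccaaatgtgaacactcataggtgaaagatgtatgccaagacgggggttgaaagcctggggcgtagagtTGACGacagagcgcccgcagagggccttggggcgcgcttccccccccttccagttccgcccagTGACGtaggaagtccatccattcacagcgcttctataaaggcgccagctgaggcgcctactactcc
The Dusp1 window held 3 matches on the 2 strands, of which the pair starting 143 and 140 bases upstream overlap and together form the full palindrome TGACGTCA. Nr4a1 held 4 matches, the nearest starting 40 bases upstream. Atf3 held 1, starting 7 bases upstream, and Fos held 2, starting 129 and 66 bases upstream. RefSeq windows were matched for 8 of the 10 genes, Fosb included, and 6 of these 8 held TGACG, against 17.8% of all 32851 windows of that length. TGACGTCA was found in Dusp1 alone of the 8 and in 1.55% of all windows, and TATAAA in Fos alone and in 12.4%. The motif TGANTCA, the AP-1 site, was in 0 of the 8 windows and in 6.75% of all. The CArG box, the site of serum response factor, was likewise in 0 of the 8 and in 1.47% of all. Only exact matches within these 250 bases were counted. Sites further away or with a variant sequence would be missed, so the zeros do not show that such sites are lacking. The 4 genes shown, chosen for their different courses, all held TGACG. The others with it were Junb, which also rose, and Fosb, which is not analysed here.

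Library totals ran from 36619799 to 58538025 counts. Pcm1, the protein used to sort cardiomyocyte nuclei, had 248 ± 5.25 CPM (counts scaled to TMM-adjusted library size, mean ± SD, n = 3) in P1, 136 ± 9.90 in P14 and 173 ± 3.90 in P56 libraries. The 15 cardiomyocyte markers summed to 53496 to 94247 CPM in the 9 libraries. The smallest mean count in the table was 10, so a marker without counts would be missing from it. Of 47 markers of fibroblasts, endothelium, leukocytes, smooth muscle and pericytes, and epicardium in the table, none was at 0 at any age. Their mean log2 CPM, called the marker score here, was 1.32 to 1.92 in P1, 2.48 to 3.69 in P14 and 0.58 to 1.69 in P56 libraries, so it was highest at P14. In such bulk libraries fewer cells of a type and less RNA per cell cannot be told apart.

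Transcripts of the immediate early genes were scarce to moderate at every age. Levels below are divided by exon length, and whether reads in introns were counted is not known. Ranks between genes with and without introns, and percentiles among all genes, are therefore uncertain. Per kilobase of exon (RPKM), Atf3 was first at P1 (4.32 ± 1.02, SD, n = 3), ahead of Jun (3.60 ± 1.03) and Jund (3.05 ± 0.639), with library ranges that overlap from one to the next. Nr4a1 (1.62 ± 0.510) and Dusp1 (1.58 ± 0.231) formed the next pair, apart from Jund above and Ier2 (0.763 ± 0.0573) below. Egr1 (0.502 ± 0.187), Junb (0.448 ± 0.0253) and Fos (0.330 ± 0.139) came last with overlapping ranges. At P14 Dusp1 (5.54 ± 0.969), Jund (4.65 ± 0.817), Jun (3.96 ± 0.266), Nr4a1 (3.27 ± 0.773) and Atf3 (2.68 ± 0.194) led with overlapping neighbours, apart from Ier2 (1.07 ± 0.412) and Junb (0.785 ± 0.168), and those from Egr1 (0.362 ± 0.142) and Fos (0.352 ± 0.184). By P56 the order had changed at both ends. Dusp1 stood first at 5.06 ± 0.353 RPKM, clear of Jun at 3.37 ± 0.339, which in turn was clear of Jund (1.61 ± 0.358). Jund, Atf3 (1.55 ± 0.171), Nr4a1 (1.31 ± 0.141) and Junb (0.993 ± 0.200) followed with overlapping neighbours. Ier2 (0.397 ± 0.0923) lay apart from Junb and overlapped Fos. Egr1 was last at 0.0741 ± 0.0158 RPKM, apart from Fos at 0.338 ± 0.221. The median gene had 2.20 to 2.38 RPKM depending on age. Among all genes Fos lay at percentile 17.3 to 21.0, and Egr1 at percentile 22.5 at P1 and 6.77 at P56.

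**Figure D1:**
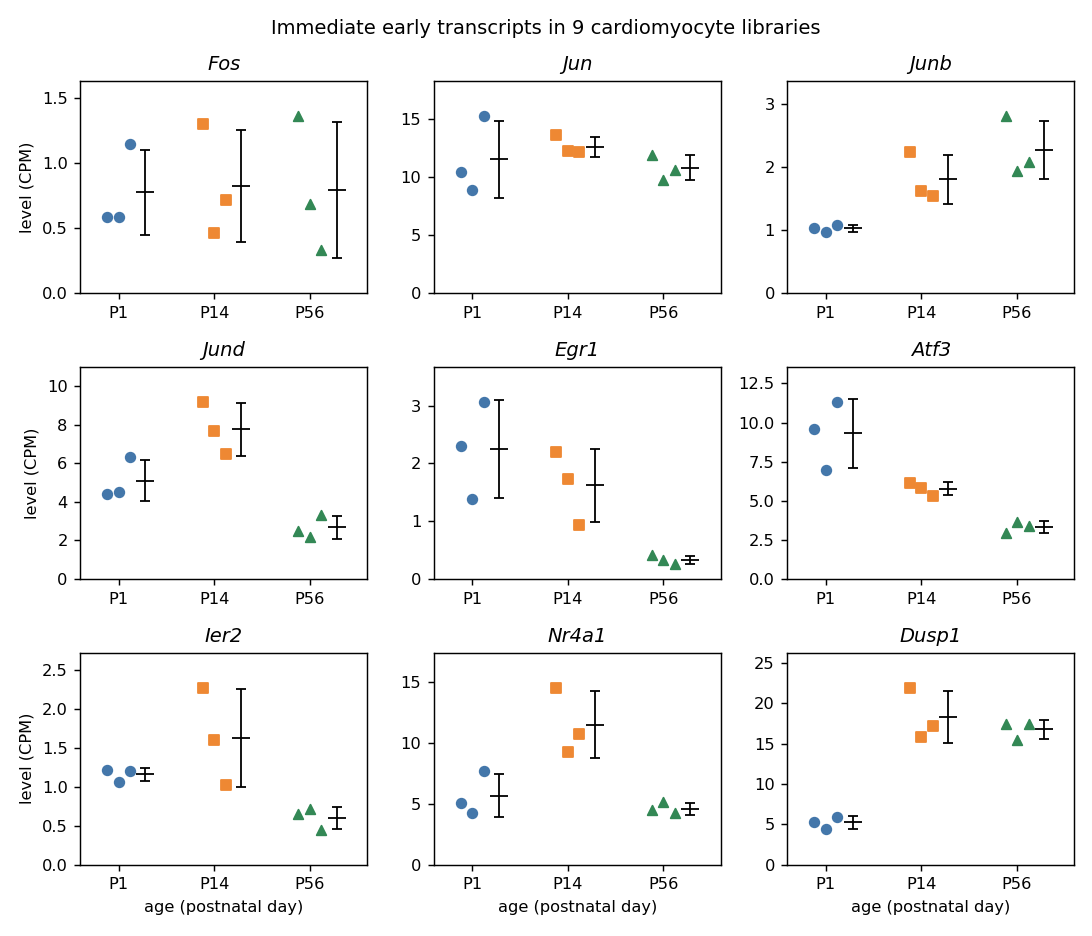
Level in CPM (y axis, from 0, one scale per gene) of each of the 9 genes in the 3 libraries of each age (x axis; coloured points in replicate order), with the mean and SD in black. Dusp1 is higher in all P14 and P56 libraries than at P1, Atf3 steps down at each age, Nr4a1 and Jund are highest at P14, and the Fos libraries spread widely within every age.

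Each gene was tested between ages with edgeR's quasi-likelihood test fitted to all 9 libraries, and a change counts as called at an adjusted p (Benjamini-Hochberg over all genes) under 0.05. Repeat fits carried offsets that remove each library's trend with the GC content of transcripts (GC offsets), or the marker score as a covariate. Marker scores at P14 overlapped those of neither other age. Changes to or from P14 in that fit therefore rest on the trend within ages, and P14 and the score cannot be cleanly separated. Among the AP-1 subunit genes, Fos and Jun did not pass the threshold in any comparison, Junb rose, and Jund rose and then fell. Fos, whose protein pairs with a Jun protein to form AP-1, was counted 37, 31 and 64 times in P1 replicates 1 to 3, 51, 17 and 26 times in those of P14, and 60, 30 and 15 times in those of P56. In CPM these were 0.585, 0.588 and 1.15 for P1, 1.30, 0.460 and 0.717 for P14 and 1.36, 0.689 and 0.334 for P56. The 3 ages cover the same range, and 1 library in each stands well above another. The highest Fos library exceeded the lowest by 1.97 times in P1, 2.84 times in P14 and 4.07 times in P56. The coefficient of variation among replicates was 42.2% to 65.5%, against 15.1% to 17.9% from counting error alone. The log2 difference was 0.10 ± 0.53 (SE) for P14 against P1 (95% interval −1.07 to 1.28), −0.07 for P56 against P14 (−1.26 to 1.13) and 0.04 for P56 against P1 (−1.13 to 1.20). These intervals leave room for a 2-fold difference either way.

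Jun, which encodes the main partner of Fos, was far more abundant in counts (424 to 842 per library). Its CPM was 10.4, 8.89 and 15.2 for P1, 13.6, 12.2 and 12.1 for P14 and 11.9, 9.74 and 10.6 for P56. Replicate 3 of P1 was the highest of the 9, and the P1 libraries spanned the range of the rest. The log2 difference was 0.14 (95% interval −0.26 to 0.54) for P14 against P1, −0.23 (−0.63 to 0.17) for P56 against P14 and −0.09 (−0.49 to 0.30) for P56 against P1, so these intervals exclude a 2-fold change. P14 and P56 did not overlap in Jun, by a narrow gap (12.1 against 11.9 CPM). Without P1 replicate 3, Jun was higher at P14 than at P1 by 0.39 (adjusted p = 0.0318). Jun is a single-exon gene (chromosome 4, 95049034 to 95052222) that shares 232 bases of exon with the antisense gene Junos, which had 25.7, 26.9 and 46.0 CPM on average at the 3 ages, and reads of the pair cannot be told apart without strand.

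Junb, an AP-1 subunit that can oppose Jun, stood at 1.04, 0.967 and 1.08 CPM for P1, 2.25, 1.62 and 1.55 for P14 and 2.81, 1.95 and 2.09 for P56. All later libraries lay above all P1 libraries, while P14 and P56 overlapped. The rise was 1.75-fold from P1 to P14 (log2 0.81 ± 0.21, edgeR quasi-likelihood test, adjusted p = 0.00842) and 2.21-fold from P1 to P56 (1.15 ± 0.21, adjusted p = 0.000782). From P14 to P56 the difference of 0.34 ± 0.20 did not pass (adjusted p = 0.182), and it did with GC offsets (0.93, adjusted p = 0.00911) and without P14 replicate 1 (0.53, adjusted p = 0.0497). The rise from P1 to P14 did not pass with GC offsets (0.49, adjusted p = 0.118) or once the marker score was a covariate (0.19, adjusted p = 0.601). Junb shares 173 exon bases with Prdx2 on the other strand.

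Jund, the AP-1 subunit usually made in resting cells, had 4.43, 4.53 and 6.32 CPM for P1, 9.17, 7.65 and 6.46 for P14 and 2.51, 2.18 and 3.34 for P56. The 3 ages did not overlap, with P14 highest and P56 lowest. It rose 1.52-fold from P1 to P14 (log2 0.61 ± 0.20, adjusted p = 0.0266) and fell 2.89-fold from P14 to P56 (−1.53 ± 0.21, adjusted p = 0.000242). At P56 it was 1.90-fold lower than at P1 (−0.92 ± 0.21, adjusted p = 0.00329). The rise to P14 was lost without P1 replicate 1, P1 replicate 2, P14 replicate 1 or P14 replicate 2 (0.47 to 0.62, adjusted p = 0.0617 to 0.0981), with GC offsets (0.28, adjusted p = 0.299) and with the marker score (0.32, adjusted p = 0.435). The fall to P56 was −0.84 with GC offsets (adjusted p = 0.0110) and −1.13 with the marker score (adjusted p = 0.0617). The difference between P56 and P1 did not pass with GC offsets (−0.56, adjusted p = 0.0504). Jund is a single exon of 1668 bases with 67.1% GC, the highest of the 9 genes, and 877 of its bases are also exon of the antisense gene Gm11175, which had 0.225 to 0.401 CPM on average at the 3 ages.

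Atf3, a stress-induced repressor of the ATF family (chromosome 1, 191170296 to 191218039), fell at each step. It had 9.61, 6.97 and 11.3 CPM for P1, 6.16, 5.81 and 5.32 for P14 and 2.94, 3.67 and 3.39 for P56. No library of one age overlapped another age. The fall was 1.61-fold from P1 to P14 (log2 −0.69 ± 0.17, adjusted p = 0.00683) and 1.73-fold from P14 to P56 (−0.79 ± 0.18, adjusted p = 0.00413). Over the whole span it was 2.79-fold (−1.48 ± 0.18, adjusted p = 4.7e-05). After the marker score was added as a covariate, the whole span stood at −1.37 (adjusted p = 3.98e-05) and the step from P14 to P56 at −0.41 (adjusted p = 0.436).

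Egr1, a zinc finger factor induced by growth signals and stretch (ENSMUSG00000038418), was lowest at P56. It was counted 146, 73 and 170 times for P1, 86, 64 and 34 times for P14 and 18, 14 and 12 times for P56. In CPM these were 2.31, 1.38 and 3.06, then 2.20, 1.73 and 0.938, and then 0.408, 0.321 and 0.267. P1 and P14 overlapped, and all P56 libraries lay below both ages. Egr1 was 6.74-fold lower at P56 than at P1 (log2 −2.75 ± 0.40, adjusted p = 0.000194), the largest change of the 9 genes in any comparison, and 4.87-fold lower than at P14 (−2.28 ± 0.41, adjusted p = 0.00116). The difference of −0.47 ± 0.34 between P14 and P1 did not pass (adjusted p = 0.267). Given the marker score as a covariate, P56 remained below P1 (−2.18, adjusted p = 1.05e-05), and the steps were −2.10 for P14 against P1 (adjusted p = 0.000672) and −0.07 for P56 against P14 (adjusted p = 0.931).

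Nr4a1 and Ier2 had their highest means at P14. Nr4a1, an orphan nuclear receptor also known as Nur77, had 5.07, 4.26 and 7.69 CPM for P1, 14.5, 9.22 and 10.7 for P14 and 4.46, 5.17 and 4.21 for P56. Every P14 library lay above every other library. It rose 2.02-fold from P1 to P14 (log2 1.02 ± 0.23, adjusted p = 0.00403) and fell 2.49-fold to P56 (−1.32 ± 0.23, adjusted p = 0.00105). P56 and P1 overlapped and did not pass (−0.30 ± 0.23, adjusted p = 0.285). Ier2, a small nuclear protein gene of 1 exon, had 1.22, 1.06 and 1.21 CPM for P1, 2.27, 1.60 and 1.02 for P14 and 0.657, 0.712 and 0.446 for P56. Its P14 libraries straddled P1, and P56 lay below all others. It fell 2.70-fold from P14 to P56 (−1.43 ± 0.30, adjusted p = 0.00296) and was 1.92-fold lower at P56 than at P1 (−0.94 ± 0.30, adjusted p = 0.0208). The latter call was lost without P1 replicate 1, P1 replicate 3 or P56 replicate 3 (−0.91 to −0.76, adjusted p = 0.0535 to 0.0765), with GC offsets (−0.73, adjusted p = 0.0822) and with the marker score (−0.57, adjusted p = 0.0505). For P14 against P1 Ier2 passed only without P14 replicate 3 among the alternatives (0.74, adjusted p = 0.0259). Adding the marker score as a covariate put Nr4a1 at 0.51 and −0.60 for the 2 intervals (adjusted p = 0.209 and 0.302) and Ier2 at −0.59 and 0.01 (adjusted p = 0.211 and 0.989).

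Dusp1, whose product removes phosphate from p38, JNK and ERK and so limits the signals that induce these genes, rose after P1 and did not pass the threshold between P14 and P56. Its level was 5.31, 4.44 and 5.96 CPM for P1, 21.9, 15.8 and 17.2 for P14 and 17.4, 15.4 and 17.4 for P56. Every later library was above every P1 library, and P14 and P56 overlapped. It rose 3.50-fold from P1 to P14 (log2 1.81 ± 0.15, adjusted p = 7.69e-06) and was 3.20-fold higher at P56 than at P1 (1.68 ± 0.15, adjusted p = 5.47e-06). Between P14 and P56 the difference was −0.13, with a 95% interval of −0.45 to 0.19. Both rises passed in all 18 alternative settings, at 1.50 to 1.91 for P14 and 1.57 to 1.80 for P56. The annotated Dusp1 locus (chromosome 17, 26505590 to 26562128) shares 11 exon bases with Ergic1 on the other strand.

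Of the 9 genes, 7 differed among the ages in an F test over all ages (78% of the 15817 genes tested did). From P1 to P14, 4 rose (Junb, Jund, Nr4a1 and Dusp1; 28.4% of all genes rose) and 1 fell (Atf3; 27.5% fell), which as 5 of 9 is near the 55.9% of all genes. From P14 to P56, 0 rose (27.5% of all genes) and 5 fell (Jund, Egr1, Atf3, Ier2 and Nr4a1; 28.5%), beside 56% of all genes called. At P56 against P1, 2 were higher (Junb and Dusp1; 30.9%) and 4 lower (Jund, Egr1, Atf3 and Ier2; 31.7%), beside 62.6% called among all genes. The median log2 change of the 9 was 0.49, −0.79 and −0.30 in these comparisons, beside 0.00, −0.02 and −0.03 over all genes. The 3 comparisons share libraries in pairs, so they are given side by side. Libraries of the compared ages did not overlap for 5, 6 and 6 of the 9 genes, beside 63.9%, 59.5% and 72.2% of all genes.

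Markers of other cell types mostly rose to P14 and then fell, as Jund and Nr4a1 did, while the other 7 genes were not called in both of those directions. The part of other cells in the changes was not tested. When the marker score was a covariate, 0 of the 5 falls from P14 to P56 were called, beside 37.8% of the 4504 falls over all genes that were called again. In that fit 30.3% of all genes were called for this step, 15.6% higher and 14.7% lower, so calls were fewer across the whole table. The P14 scores (2.48 to 3.69) overlapped those of neither other age, so changes to or from P14 in it are not cleanly separated from the score. With the marker score in the fit, Junb (1.17, adjusted p = 0.0244) and Fos (2.39, adjusted p = 0.0302) were called higher at P56. For P14 against P1, where this fit called 48.6% of all genes (24.2% higher and 24.5% lower), Fos was called lower (−1.77, adjusted p = 0.0293), while of the calls from P1 to P14 Atf3 (−0.96, adjusted p = 0.0141) and Dusp1 (1.50, adjusted p = 8.44e-05) remained. At P56 against P1 it called 5 of the 9 genes and 64.7% of all genes (32.1% higher and 32.6% lower). Over the same intervals all 12 endothelial markers rose (median log2 change 2.17) and then fell (−2.66), with summed levels of 80.6 to 114 CPM for P1, 239 to 613 for P14 and 42.0 to 106 for P56. Fibroblast markers went from 202 to 365 CPM at P1 to 233 to 850 at P14 and 71.2 to 152 at P56, with 5 of 12 up and 1 down and then 10 down. Leukocyte markers were 3.58 to 5.31, 8.22 to 22.5 and 7.62 to 15.0 CPM, with 8 of 9 up and then 1 down. Smooth muscle and pericyte markers (5 of 8 up and 2 down, then 6 down) were 168 to 196, 197 to 296 and 51.9 to 85.2 CPM. Epicardial markers (5 of 6 up and 1 down, then 5 down) were 37.6 to 40.0, 17.3 to 31.5 and 6.08 to 13.5 CPM.

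**Figure D2:**
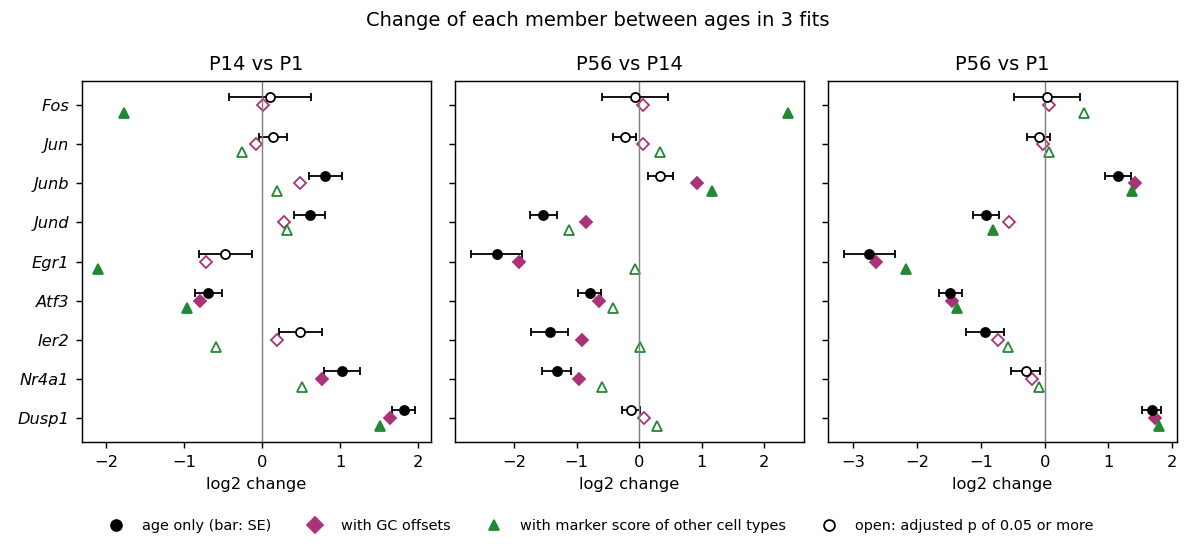
Log2 change (x axis) of each gene (rows) in the 3 comparisons, from the fit with age alone (black, bar is the SE), with GC offsets (diamonds) and with the marker score of other cell types (triangles). Filled symbols passed an adjusted p of 0.05. The Dusp1 rises lie together in all 3 fits, whereas Egr1 after P14 moves from −2.28 to −0.07 with the marker score.

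Libraries of 1 age were also compared by the order of their marker scores. Replicate 3 had the highest marker score at P1, and 8 of the 9 genes were highest there, Ier2 being the exception, beside 34.1% of all genes. At P14 all 9 were highest in replicate 1, which had the highest score, beside 43.7% of all genes. At P56 the highest score was again that of replicate 1, and 5 of 9 (Fos, Jun, Junb, Egr1 and Dusp1) were highest there, beside 38.8%. The full order of the scores was followed by 6 of 9 genes at P1 (18.5% of all genes), 6 at P14 (28.1%) and 2 at P56 (21.2%, about the same share), and by Egr1 at each age. The 9 genes share their libraries in these counts, which are given as a description with no test. P1 replicate 3 also had the most Hspa1a, a heat shock gene induced by stress, at 4.47 CPM against 0.743 and 0.341 in the other P1 libraries. Its near-identical copy Hspa1b read 4.58 against 0.648 and 0.455, and reads of this pair may be shared between them. At P14, replicate 1 had the most Hspa1a (0.179 CPM against 0.0541 and 0.0828, from 7, 2 and 3 counts). It also had the most Hsph1 (6.82 against 6.33 and 5.44), but the lowest sum over the heat shock genes (427 against 447 and 459). The largest part of that sum was Bag3, at 150 CPM against 183 and 185. The sum was highest in replicate 3 at P1 (574 against 405 and 435) and in replicate 2 at P56 (747 against 606 and 697). At P56, replicate 2 had the most Hspa1a (0.597 CPM against 0.136 and 0.200) and the most Hsph1 (25.5 against 8.47 and 16.3). Jun, Junb, Jund and Dusp1 were lowest in that library and Atf3, Ier2 and Nr4a1 highest. The part of stress in the levels of the immediate early genes was not tested.

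**Figure D3:**
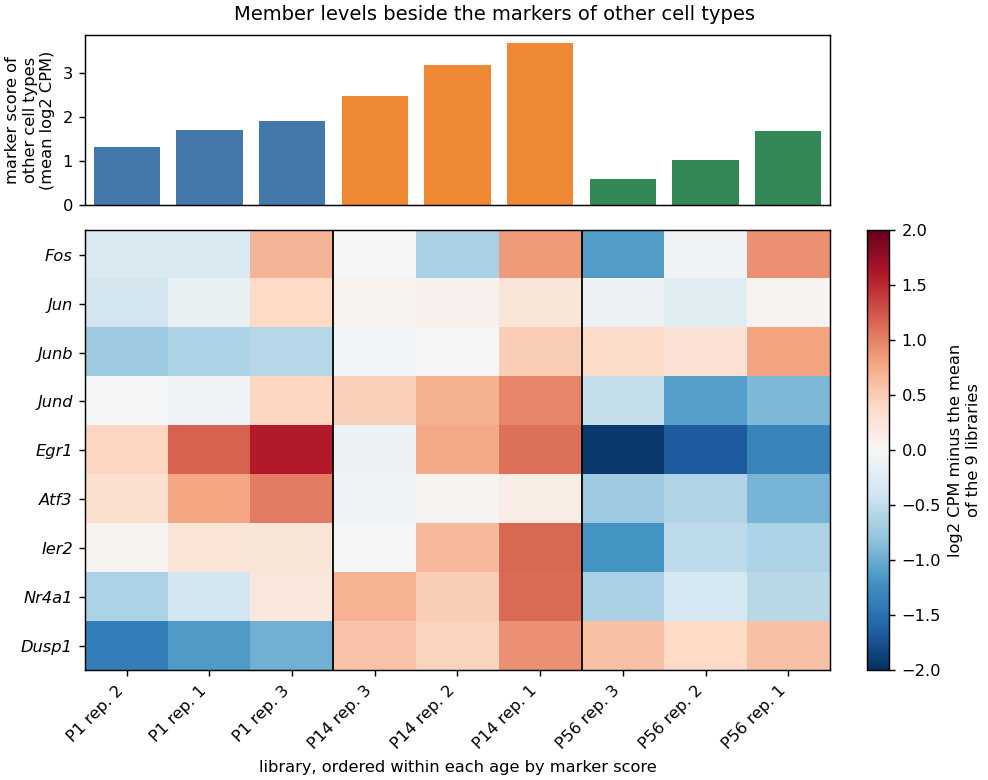
Top, marker score of other cell types (mean log2 CPM) of the 9 libraries, ordered by score within each age. Bottom, log2 CPM of each gene minus its mean over the 9 libraries (red higher, blue lower). The P14 libraries have the highest scores (2.48 to 3.69), and the right-hand library of P1 and of P14 is the reddest for most genes.

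Other immediate early genes, from a list of 36 of which 29 were in the table, had more calls upward than downward at P14. Changes of list genes are log2 values with SE, and each one named had an adjusted p of 0.0325 or below in the comparison given. Beside the list counts, 28.4% of all genes rose and 27.5% fell from P1 to P14. The shares were 27.5% and 28.5% from P14 to P56, and 30.9% and 31.7% at P56 against P1. From P1 to P14, 14 of the 29 rose and 2 fell (median log2 change 0.46). Klf2, a flow-responsive factor typical of endothelium, rose by 2.32 ± 0.38 (1.09 ± 0.381 to 5.45 ± 2.50 CPM), Trib1, a pseudokinase gene, by 2.02 ± 0.14 (2.81 ± 0.305 to 11.4 ± 1.48 CPM), and Klf4 by 1.52 ± 0.32. Nr4a2, a receptor related to Nr4a1, changed by −1.29 ± 0.14 and Ier3 by −0.91 ± 0.17. From P14 to P56, 4 rose and 17 fell (median −0.56), with Klf2 at −2.34 ± 0.38, Myc, the growth regulator, at −2.32 ± 0.31, and Klf10 at −1.86 ± 0.44. Cyr61, a matricellular protein gene and YAP target, rose by 1.75 ± 0.15 to 48.4 ± 4.78 CPM, with Ier3 (1.03 ± 0.17) and Bhlhe40, a repressor of the clock (0.66 ± 0.08), beside it. At P56 against P1 the list divided evenly into 10 higher and 10 lower (median 0.24). Cyr61 (2.76 ± 0.16), Trib1 (2.02 ± 0.14) and Zfp36, whose product destabilises AU-rich transcripts (1.15 ± 0.12), were higher, and Myc (−2.55 ± 0.31), Plk2 (−2.15 ± 0.19) and Klf10 (−1.63 ± 0.43) lower, all with adjusted p of 0.00814 or below. Counts with the marker score as a covariate were 8 up and 7 down, then 4 and 4, and 13 and 9 over the whole span, in a fit that called 48.6%, 30.3% and 64.7% of all genes.

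Of 15 further AP-1, ATF and CREB genes in the table, 6 rose and 2 fell from P1 to P14 (median 0.35) and 2 rose and 6 fell to P56 (median −0.08). Over the whole span 7 were higher and 3 lower (median −0.04). Fosl2, the FOS family member also called Fra-2, had 21.2, 18.7 and 21.5 CPM for P1, 55.6, 58.0 and 59.7 for P14 and 33.4, 46.8 and 41.3 for P56. Its ages did not overlap, with P14 highest. It rose by 1.49 ± 0.11 (adjusted p = 5.1e-06) and then fell by 0.51 (SE 0.11, adjusted p = 0.00349). Atf5 (1.59 ± 0.20, then −1.91 ± 0.21) and Mafg, a small MAF partner gene (1.43 ± 0.19 to P14), also rose, and Creb1 changed by −0.50 ± 0.07 and Atf2 by −0.43 ± 0.08 from P1 to P14. After P14, Atf6, a sensor of endoplasmic reticulum stress, rose by 0.84 ± 0.09 and Atf2 by 0.39 ± 0.08, while Maff changed by −0.70 ± 0.24.

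Among 29 factors and kinases upstream of these genes, 11 rose and 9 fell from P1 to P14 (median 0.03), 8 rose and 11 fell to P56 (median 0.00), and 8 were higher and 12 lower over the whole span (median −0.15). Map2k3, an activator of p38, rose by 1.71 ± 0.11, and Map2k6, another, changed by −1.34 ± 0.10 and then by 0.65 ± 0.10. Elk3, an ETS factor that acts with serum response factor and is abundant in endothelium, went from 12.5 ± 1.10 to 41.8 ± 18.6 and then to 5.14 ± 2.43 CPM (1.75 ± 0.35, then −3.02 ± 0.38). Mapk3, which encodes ERK1, changed by −1.25 ± 0.19 after P14 (5.30 ± 1.19 to 2.23 ± 0.396 CPM) and Mapk7, which encodes ERK5, by −1.65 ± 0.18. Srf, named after its values were seen, had 21.6 ± 1.62 CPM for P1, 22.1 ± 2.53 for P14 and 13.1 ± 2.15 for P56 (−0.76 ± 0.13 after P14, adjusted p = 0.000953).

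Of 9 further MAP kinase phosphatase genes, 5 rose and 1 fell to P14 (median 0.38), 1 rose and 4 fell after it (median −0.22), and 4 were higher and 3 lower at P56 than at P1 (median 0.03). Dusp7, an ERK phosphatase gene, rose by 1.52 ± 0.10 and stood at 6.80 ± 0.105, 19.6 ± 2.16 and 18.5 ± 1.71 CPM at the 3 ages. Dusp8 rose by 1.08 ± 0.12 and Dusp5 by 0.86 ± 0.14, and Dusp6, an ERK feedback gene, changed by −1.69 ± 0.39 after P14. Among heat shock genes the calls ran mostly down and then up, with 2 of 15 up and 11 down from P1 to P14 (median −0.76) and 8 up and 0 down after it (median 0.55). At P56 against P1, 3 were higher and 5 lower (median −0.47). Hsph1, a cochaperone, had 30.8 ± 15.2 CPM for P1, 6.19 ± 0.703 for P14 and 16.8 ± 8.54 for P56 (−2.31 ± 0.42, then 1.44 ± 0.41). Hspa1a changed by −4.08 ± 1.11 from P1 to P14 (adjusted p = 0.011), with the P1 values given above spread from 0.341 to 4.47 CPM. Bag3, a cochaperone of the sarcomere, rose by 0.84 ± 0.14 and Dnajb4 by 0.25 ± 0.09 to P14, and Dnajb4 rose by a further 1.24 ± 0.09 to P56.

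**Figure D4:**
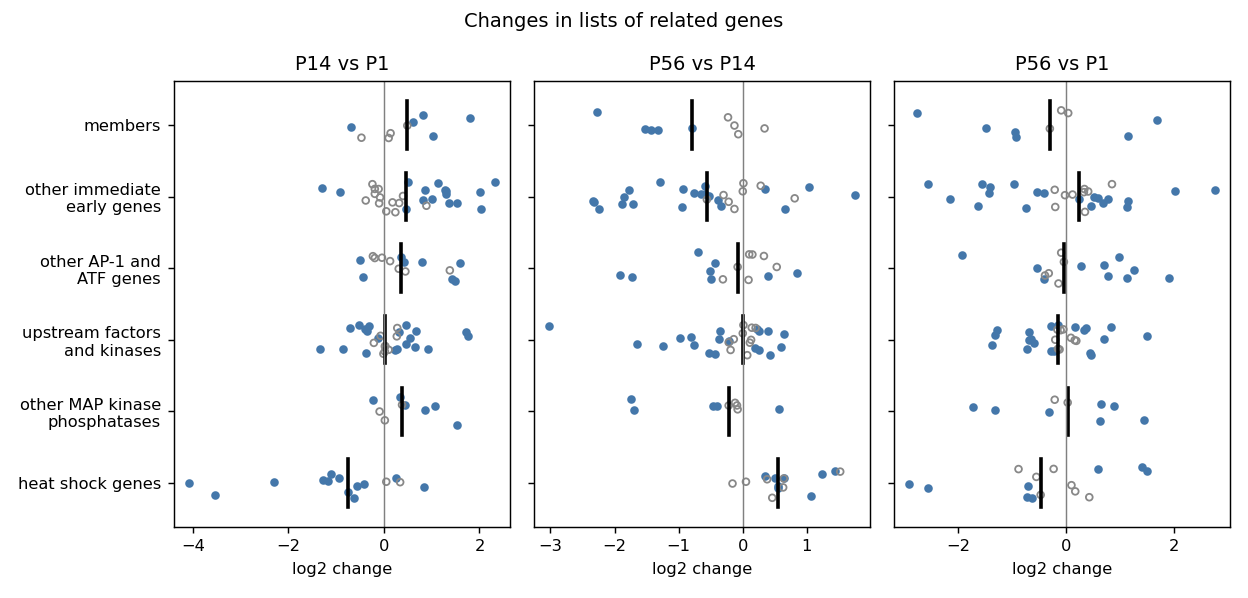
Log2 change (x axis) of the 9 genes and of 5 lists of related genes (rows) in the 3 comparisons. Each point is a gene, filled where its adjusted p was under 0.05, with vertical scatter for legibility, and black bars are list medians. Other immediate early genes have medians of 0.46 and then −0.56, and heat shock genes of −0.76 and then 0.55.

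The 9 genes did not share one course. Likeness was taken as the root mean square difference of log2 CPM over the 9 libraries after centring each gene on its mean, so that 0 is an identical course. The closest pairs among the members were Jund with Nr4a1 and Jund with Ier2 (0.38 each), and the most distant were Dusp1 and Egr1 (1.81). Across the table, the genes nearest to Egr1 were Vim, which encodes vimentin, a filament of mesenchymal and endothelial cells (0.220), Marcks (0.261) and Tbxa2r (0.288). Nearest to Jund was Aqp4, a water channel gene (0.184), followed by Irs2, an insulin receptor substrate gene (0.224), and Efr3b (0.235). Junb ran closest to Thsd7a (0.123), the natriuretic peptide gene Nppb (0.131) and Tmem43 (0.134), and Dusp1 to Rerg (0.153), the Fc receptor gene Fcgrt (0.159) and Fsd1l (0.174). For Atf3 these were Fbxl22 (0.168), Creld2 (0.171) and Fbxl2 (0.182), for Nr4a1 Ube2l6 (0.240), Arl8a (0.242) and Nlgn1 (0.254), for Ier2 Gdpd3 (0.166), Gltp (0.174) and Mgat4a (0.184), and for Jun Chpf (0.125), Spryd4 (0.127) and Selk (0.143). Fos had no near match, since its nearest genes Maoa, Zfp954 and Thap11 differed by 0.437 to 0.464.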

How the data were processed

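The authors deposited 1 table of whole-number counts per gene for the 9 libraries. The submitters' processing notes name bcl2fastq 2.17.1.14, STAR 2.4.0g1, featureCounts 1.4.2 and the build GRCm38. For the features counted and the strand setting, nothing was found in the sources used here. Overlapping and antisense genes are therefore uncertain. The smallest mean count was 10, so low genes appear to have been removed before. The members and lists were chosen with earlier results of these data known.

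The test was that of edgeR 4.0.16 (R 4.3.3), with DESeq2 1.42.0 as an alternative. The filter filterByExpr left 15817 genes, and libraries were scaled by TMM. One quasi-likelihood fit with age as its term held all 9 libraries, and p-values were adjusted by Benjamini-Hochberg over all genes, with a threshold of 0.05. The SE is the log2 change divided by the square root of F. Libraries of 1 age differed by more than counting error (chi-square per degree of freedom 5.56 to 105). Replicates are pools of hearts, called biological triplicates in the design text. On simulated counts for P14 against P1 the script was tested before use.

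Exon lengths, GC content and positions came from the GENCODE annotation of GRCm38, which held 15758 of the 15824 gene identifiers. GC offsets are a lowess of each library's deviation on GC content (span 0.3). Gene names follow the table. All members were named in each comparison. From each list of related genes the text names some of the 3 per direction that changed most among called genes of at least 1 CPM. Alternatives were other scalings, no filter, DESeq2, only the 2 ages compared, a replicate block, GC offsets, the marker score and leaving out each library. For likeness, the 3 nearest genes of at least 1 CPM with an established symbol were taken.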

Additional observations from a re-analysis of the deposited data

How the results depend on the processing

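Of 486 values (27 member changes under 18 alternatives), 426 kept their direction and side of the threshold. With the direction kept, 21 lost their call and 7 gained one, and 32 changed sign. The sign changes concern Fos, Jun, Ier2 and Dusp1, and of these values only that of Ier2 for P56 against P14 had been called in the fit with age alone. That call was lost with the change of sign. Fos gained a call with its changed sign under the marker score, at −1.769 (P14 against P1) and 2.389 (P56 against P14). The same members were called with DESeq2's size factors, upper-quartile scaling, no filter, DESeq2's Wald test and only the 2 ages compared, which gives no value for the test over all ages. Upper-quartile scaling moved the median of all genes by −0.112 at P56 against P1, and the 6 members called there were the same. From P1 to P14, 3 members were called with GC offsets and 3 with GC offsets and the replicate block. With the marker score, 4792 genes and 2 members were called from P14 to P56. The cause was not tested.

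Sign changes with GC offsets were Jun at −0.081 (P14 against P1) and, for P56 against P14, Jun at 0.06, Fos at 0.063 and Dusp1 at 0.085. With GC offsets and the replicate block they were Jun at −0.062 and Fos at −0.1 (P14 against P1), Jun at 0.054, Fos at 0.073 and Dusp1 at 0.096 (P56 against P14), and Fos at −0.027 (P56 against P1). With the marker score they were Jun at −0.259, Ier2 at −0.587 and Fos at −1.769 (P14 against P1), Jun at 0.328, Ier2 at 0.012, Fos at 2.389 and Dusp1 at 0.294 (P56 against P14), and Jun at 0.069 (P56 against P1). Fos at P56 against P1 was −0.074 with upper-quartile scaling. Leaving out 1 library at a time, with 4 to 6, 5 to 6 and 5 to 6 members called, gave changes of Fos from −0.394 to 0.5, −0.703 to 0.43 and −0.597 to 0.435 for P14 against P1, P56 against P14 and P56 against P1, Jun −0.014 to 0.391 (P14 against P1) and −0.247 to 0.158 (P56 against P1), and Dusp1 −0.224 to 0.021 (P56 against P14).

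Replicate numbers were not shown to pair the libraries. Same-numbered libraries had deviations that correlated at −0.199 to 0.447 over genes, and differently numbered ones at −0.423 to 0.274. The highest values were those of P14 with P56 for replicate 1 (0.447) and replicate 3 (0.318), while replicate 2 had 0.016. Whether libraries of these ages share a batch by number was not tested. With the replicate block 5, 5 and 6 members were called in the 3 comparisons, as without it, and 8824, 8847 and 9998 genes. Fos at P56 against P1 was −0.052 there. Egr1 at P56 (12 to 18 counts per library) is limited by depth, with a replicate coefficient of variation of 21.3% against 26.1% from counting error. For Fos the spread between libraries, not depth, is the limit.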
